A study of Homo sapiens with 4 samples.

Results

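snoRNA host genes of the SNHG kind carry small nucleolar RNAs in their introns and are mostly annotated as long non-coding, and 32 of the 61806 genes in the count table were assigned to this group. GENCODE v29 lists 1 of them, SNHG32, as protein-coding. They were chosen by name, as every gene called SNHG followed by a number together with GAS5, ZFAS1, EPB41L4A-AS1 and DANCR, and no expression value entered the choice. Poly(A) RNA of 2 human cancer cell lines was sequenced in 4 libraries, MDA-MB-231 breast cancer cells as a control and after CPYPP, and MDA-MB-435 melanoma cells as a control and after CPYPP. Both lines were wild type, CPYPP (an inhibitor of DOCK proteins, which activate the small GTPase Rac) was given at 10 µM, and the treatment lasted 6 h. The vehicle of the control cells is not given in the sources used here. Each condition was 1 library of 1 line, so that the spread between cultures could not be estimated, and intervals around a fold change within a line are 95% exact binomial (Clopper-Pearson) intervals that cover counting error only.

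Small nucleolar RNAs guide chemical modification of ribosomal RNA and other RNAs, the box C/D class for 2′-O-methylation and the box H/ACA class for pseudouridylation. They are trimmed out of the spliced introns of a host transcript, and in the SNHG genes the remaining exons form a polyadenylated RNA with little or no coding function. Many such spliced host RNAs begin with a run of pyrimidines at the 5′ end, as the mRNAs of ribosomal proteins do, and are degraded by nonsense-mediated decay when they are translated. Poly(A) libraries are made from polyadenylated host RNA, spliced or with introns kept, and not from the short, non-polyadenylated snoRNAs.

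The libraries held between 17196385 and 22663954 counts on genes, and the CPYPP libraries were shallower than their controls. SOX10, a transcription factor of the melanocyte lineage, had 0 (control) and 1 (CPYPP) counts in MDA-MB-231 but 3031 and 707 counts in MDA-MB-435. S100B, also of that lineage, had 0 counts in both MDA-MB-231 libraries and 1055 and 761 counts in MDA-MB-435. MITF, the main regulator of the lineage, did not separate the lines, with 1585 and 690 counts in MDA-MB-231 against 1405 and 809 counts in MDA-MB-435. The pigment genes TYR (2 and 3 counts), MLANA (9 and 14) and PMEL (13 and 4) were near 0 in MDA-MB-435. Of 6 markers listed for MDA-MB-231, EGFR (12150 and 8161 counts against 70 and 33), KRT8 (12813 and 9549 against 522 and 310) and EPCAM (387 and 287 against 2 and 0) had fewer counts in MDA-MB-435. KRT18 (8212 and 5653 against 5740 and 4077) differed less, and VIM (38484 and 24404 against 98483 and 68113) and CD44 (27537 and 20016 against 36689 and 27990) had more counts in MDA-MB-435.

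Start sites of the host genes that the results below turn on are shown first. Each window has 80 bases from RefSeq (GRCh38.p14), 40 before the annotated start and 40 from it onward, written 5′ to 3′ on the strand of the gene. Capitals mark a pyrimidine run, defined as a C followed by at least 5 further C or T letters and beginning within 10 bases of the start. SNHG4, SNHG26, SNHG3 and SNHG17 are shown because their level changed after CPYPP over both lines, SNHG19 because it had the lowest folds, and SNHG1 because its folds lay on opposite sides of 1 in the 2 lines.
SNHG4 (chr5:139274061-139274140, plus strand): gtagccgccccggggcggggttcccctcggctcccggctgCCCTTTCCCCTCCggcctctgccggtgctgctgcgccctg
SNHG26 (chr7:22854200-22854279, plus strand): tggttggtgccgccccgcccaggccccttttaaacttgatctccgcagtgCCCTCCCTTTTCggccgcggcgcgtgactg
SNHG3 (chr1:28505903-28505982, plus strand): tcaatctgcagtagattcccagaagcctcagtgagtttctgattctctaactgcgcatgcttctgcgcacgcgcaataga
SNHG17 (chr20:38435289-38435368, minus strand): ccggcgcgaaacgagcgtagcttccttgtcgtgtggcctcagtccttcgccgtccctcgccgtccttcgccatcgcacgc
SNHG19 (chr16:2155319-2155398, minus strand): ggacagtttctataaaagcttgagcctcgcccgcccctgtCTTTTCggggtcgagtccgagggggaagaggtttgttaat
SNHG1 (chr11:62855846-62855925, minus strand): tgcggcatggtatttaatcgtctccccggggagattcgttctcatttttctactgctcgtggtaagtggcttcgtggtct

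A run of this kind was present at the start of 12 of the 28 host genes with a RefSeq promoter (42.9%), against 20.5% of all 27305 promoters. The 12 were SNHG4, SNHG7, SNHG8, SNHG12, SNHG14, SNHG16, SNHG18, SNHG19, SNHG26, SNHG29, SNHG31 and SNHG32. The run was 13 bases long in SNHG4, 12 in SNHG26 and SNHG12, and 6 in SNHG19. In SNHG7, SNHG14 and SNHG29 it ended before the annotated start and so lies outside the annotated transcript. The RefSeq start lay 1259 bases from the start of the counted gene for SNHG12 and 154975 bases for SNHG14. For SNHG20 and SNHG27, named below for another pattern, it lay 1927 and 37251 bases away. In these genes the sequence read here is not at the start of the counted gene. Whether the counted RNAs begin with such a run was not tested. The windows of SNHG3, SNHG17 and SNHG1 held no run by this definition. In the 300 bases from 250 before to 50 after the start, read on both strands, the E-box CACGTG was found in SNHG7 and SNHG30 (7.43% of all promoters hold it). GAANNTTC, the core of a heat shock element, was found in GAS5 and SNHG29 (6.87% of all). TGACNNNGC, the core of an antioxidant response element, was found in SNHG4, SNHG20 and SNHG27 (13.6% of all), and TGATGNAA, of the C/EBP-ATF type, in none (3.67% of all). None of these 4 patterns contains another, and a match is a description of the sequence only.

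Of the 32 host genes, 27 had at least 10 counts in a library of each line and were compared. The 5 others (SNHG14, SNHG22, SNHG25, SNHG27 and SNHG28) had at most 9 counts in any library. Per length, as FPKM on the union of annotated exons, SNHG32, the former C6orf48, had the highest mean level at 41.3 FPKM, followed by SNHG1 at 32.6, SNHG29 at 23.4, GAS5 at 23.0 and SNHG6 at 18.1. The compared host gene with the lowest mean level was SNHG31 at 0.323 FPKM. The union counts exons of all isoforms, including those with a retained intron, so that a level per length is lower than that of the main spliced form. The union of SNHG1 has 3976 bases and fills its whole span, from 62851978 to 62855953. That of SNHG8, SNHG9, SNHG15, SNHG19 and EPB41L4A-AS1 fills the span as well. Counts of such genes can hold reads of introns, and spliced and unspliced RNA were not told apart.

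In MDA-MB-231 the host genes together made up 0.121% of all control counts (0.120 to 0.123, 95% exact binomial interval) and 0.0926% of those after CPYPP (0.0912 to 0.0941). In MDA-MB-435 they made up 0.126% (0.125 to 0.128) in the control and 0.128% (0.127 to 0.130) after CPYPP. As a ratio of TMM-normalized levels, the summed host RNA was 0.795 times the control level (0.780 to 0.811) for MDA-MB-231 and 1.07 times (1.05 to 1.09) for MDA-MB-435. The summed level was thus lower after CPYPP in the first line and slightly higher in the second. In RNA of whole cultures, fewer cells and less RNA per cell cannot be told apart, and all values are relative to the other RNA of the library.

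In MDA-MB-231, 22 of the 27 host genes had a fold below 1 (81.5%), against 52.2% of all 16441 genes compared. The median log2 fold change of the host genes was −0.28, that of all genes −0.02, that of 2030 other long non-coding genes −0.17, and that of 146 protein-coding genes that hold a snoRNA −0.03. A counting interval wholly below 1 was found for 16 host genes (24.5% of all genes had one) and an interval wholly above 1 for 1, SNHG17 (25.6% of all genes). None passed the 2-fold limit, which 5.32% of all genes passed upward and 5.52% downward (10.8% either way). At a limit of 1.5-fold, 7 host genes were lower (12.1% of all genes), namely SNHG19, SNHG12, SNHG3, SNHG26, SNHG10, SNHG4 and GAS5, and 0 were higher (12% of all genes).

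In MDA-MB-435, 11 of the 27 host genes had a fold below 1 (40.7%), against 58.1% of all 16527 genes compared, and with scaling to total counts 16 of 27 did (59.3%), against 65.5% of all genes on that scale. The median log2 fold change was 0.05 for the host genes, −0.09 for all genes, −0.55 for 2376 other long non-coding genes and 0.12 for 146 protein-coding genes that hold a snoRNA, and with scaling to total counts the median of the host genes turned to −0.02 and that of all genes to −0.16. A counting interval lay wholly below 1 for 8 host genes (31.9% of all genes) and wholly above 1 for 8 (23.5% of all genes). SNHG19 alone passed the 2-fold limit, downward, as 10.9% of all genes did (3.45% upward, 14.4% either way). At 1.5-fold, SNHG19, SNHG26, SNHG4 and SNHG11 were lower (20.7% of all genes) and SNHG17 was higher (8.69% of all genes).

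**Figure D1:**
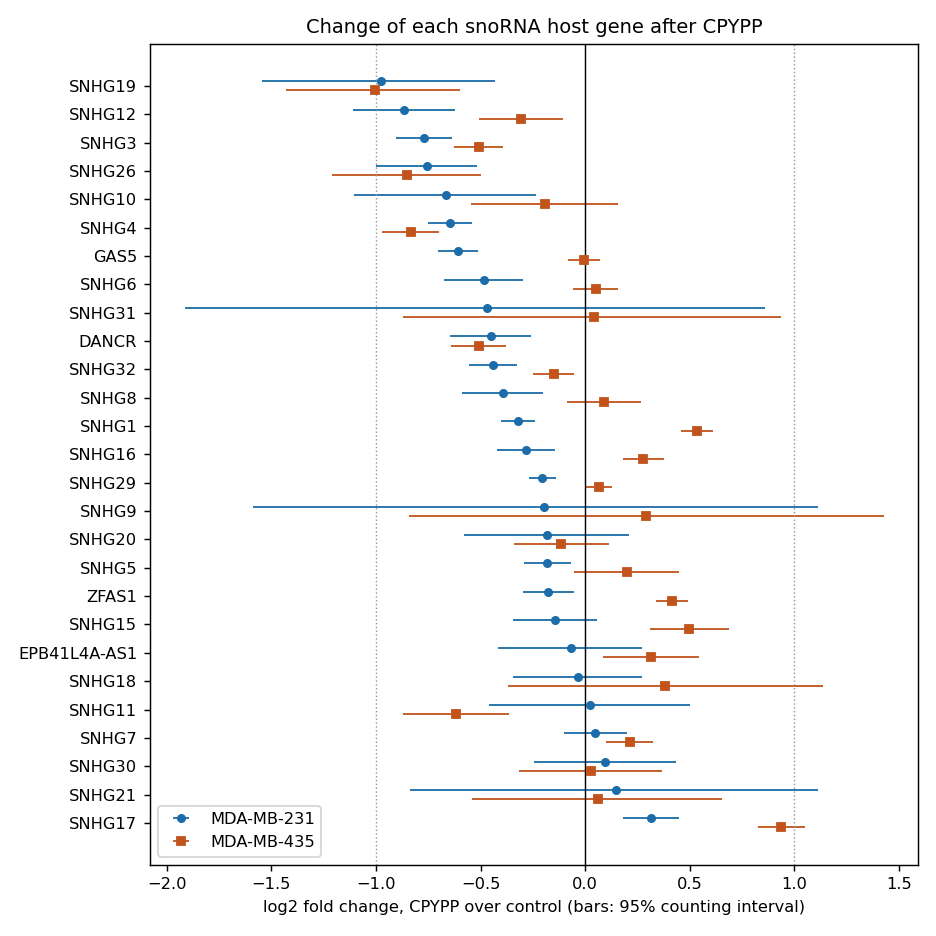
log2 fold change of each of the 27 compared snoRNA host genes after CPYPP in MDA-MB-231 (circles) and MDA-MB-435 (squares), ordered by the value in MDA-MB-231. Horizontal bars are 95% counting intervals and dotted lines mark 2-fold. In MDA-MB-231, 22 circles lie left of 0, while in MDA-MB-435 the squares of 11 genes do.

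Over both lines, 4 of the 27 host genes passed the edgeR quasi-likelihood test for a common CPYPP effect at a Benjamini-Hochberg adjusted p under 0.05. SNHG4, SNHG3 and SNHG26 were lower (2.85% of the 16801 genes tested were called lower) and SNHG17 was higher (4.39% of all were called higher). The 2 lines served as the only repeat of the treatment, with 1 residual degree of freedom and a biological coefficient of variation of 0.121, so that these p-values measure the spread between the responses of the lines and not between cultures. At an unadjusted p under 0.05, 7 host genes were lower (10.4% of all genes) and 1 was higher (10.7% of all genes).

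SNHG4, the host of the H/ACA snoRNAs SNORA74A and SNORA74D, fell in both lines. Its normalized level was 102 CPM (counts scaled to a common library size) in the MDA-MB-231 control and 65.3 CPM after CPYPP, and 60.6 and 34.0 CPM in MDA-MB-435. Each CPYPP library lay below its own control, and the treated MDA-MB-231 library lay near the MDA-MB-435 control. The folds were 0.639 (0.593 to 0.687) in the first line and 0.561 (0.511 to 0.615) in the second. The common log2 fold change was −0.74 ± 0.13 (SE, adjusted p = 0.0067, edgeR quasi-likelihood test, lower in 2 of 2 lines). SNHG4 lies on chromosome 5 from 139274102 to 139284899 (GRCh38, plus strand) and shares 16.6% of its exonic bases with other genes, MATR3 on its own strand and SIL1 on the opposite strand. MATR3 encodes the nuclear matrix protein matrin 3. The MATR3 entry that overlaps SNHG4 had only 41, 45, 59 and 33 counts in the same order of libraries. Any other entry of that name was not read here, so these counts are not the level of matrin 3 RNA. SIL1 had folds of 1.09 and 0.95.

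SNHG3, the host of SNORA73A and SNORA73B (the U17 snoRNA, which acts in the cleavage of the ribosomal RNA precursor), fell from 67.4 to 39.5 CPM in MDA-MB-231 and from 71.0 to 49.9 CPM in MDA-MB-435. The 2 controls lay close together and both CPYPP libraries lay below them. The folds were 0.586 (0.534 to 0.643) and 0.702 (0.648 to 0.761), with a common log2 fold change of −0.64 ± 0.13 (SE, adjusted p = 0.0180, edgeR quasi-likelihood test, lower in 2 of 2 lines). RCC1, the exchange factor of the GTPase Ran, starts 37 bases from SNHG3 on the same strand and shares exons with it, 5.92% of the exonic bases of SNHG3 being shared. RCC1 had folds of 0.912 and 0.869 and did not pass the same test (adjusted p = 0.449, edgeR quasi-likelihood test).

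SNHG26, the host of the C/D snoRNA SNORD93, fell from 21.1 to 12.5 CPM in MDA-MB-231 and from 9.03 to 5.01 CPM in MDA-MB-435. Its level in the treated MDA-MB-231 cells stayed above that of both MDA-MB-435 libraries. The folds were 0.591 (0.50 to 0.698) and 0.555 (0.432 to 0.708), with a common log2 fold change of −0.80 ± 0.20 (SE, adjusted p = 0.0377, edgeR quasi-likelihood test, lower in 2 of 2 lines). No exonic base of SNHG26 is shared with another gene apart from small RNA genes.

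SNHG17, whose introns carry the SNORA71 family of H/ACA snoRNAs, was the only host gene that rose over both lines in this test. It had 43.5 CPM in the MDA-MB-231 control and 54.1 CPM after CPYPP, and 45.0 and 86.1 CPM in MDA-MB-435. Both CPYPP libraries lay above both controls, and the treated MDA-MB-435 library was the highest. The folds were 1.24 (1.13 to 1.36) and 1.92 (1.77 to 2.07), with a common log2 fold change of 0.63 ± 0.16 (SE, adjusted p = 0.0412, edgeR quasi-likelihood test, higher in 2 of 2 lines). With the DESeq2 Wald test, SNHG4 and SNHG3 were called and SNHG17 (adjusted p = 0.144) and SNHG26 (adjusted p = 0.174) were not.

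**Figure D2:**
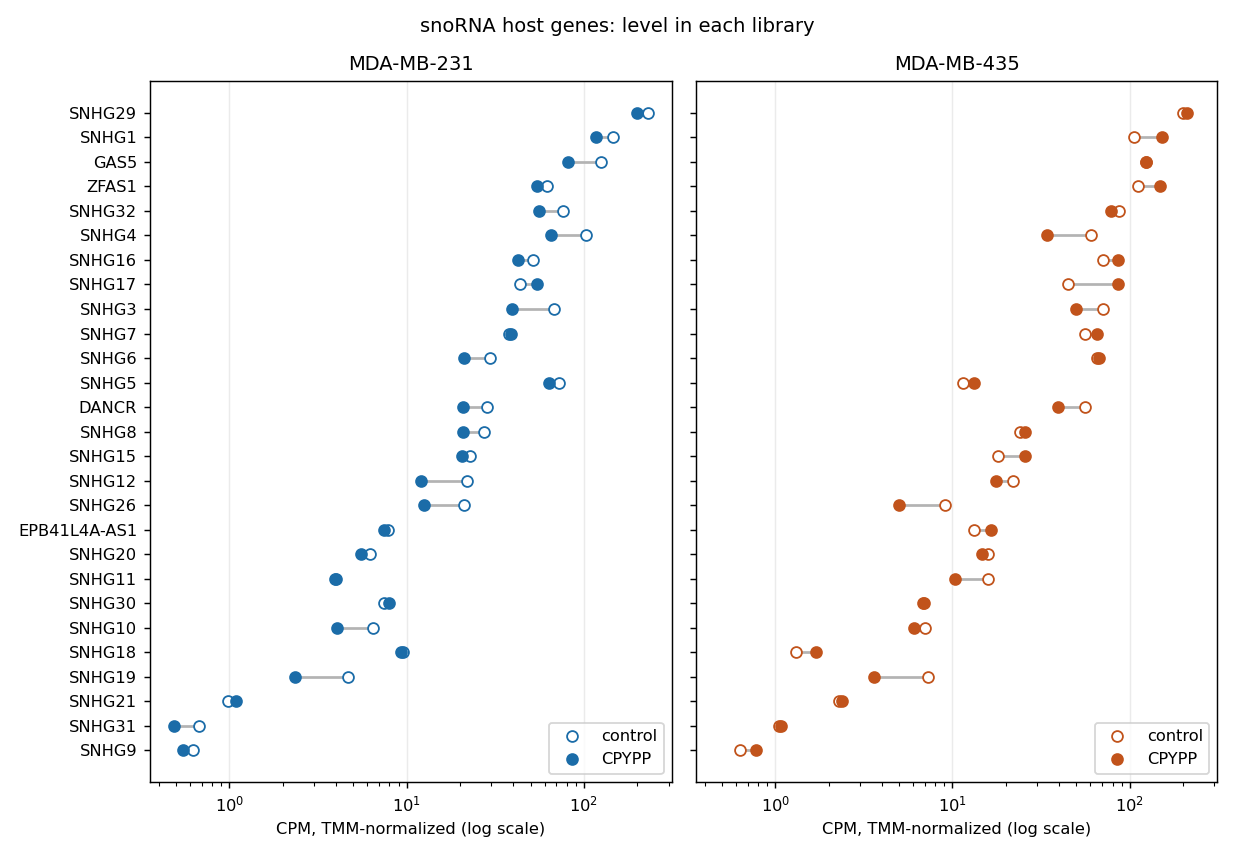
Normalized level (CPM, log axis) of each of the 27 compared snoRNA host genes in the control (open) and CPYPP (filled) libraries, MDA-MB-231 on the left and MDA-MB-435 on the right, 1 library each. Genes are ordered by level. SNHG4 moved from 102 to 65.3 CPM and from 60.6 to 34.0 CPM, and SNHG17 from 43.5 to 54.1 CPM and from 45.0 to 86.1 CPM.

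SNHG19, the host of SNORD60, had the lowest folds of the group in both lines but a low count. It had 104 and 39 counts (4.64 and 2.36 CPM) in MDA-MB-231 and 172 and 70 counts (7.26 and 3.62 CPM) in MDA-MB-435. The folds were 0.508 (0.342 to 0.741) and 0.498 (0.372 to 0.661), and both CPYPP libraries lay below both controls. The common log2 fold change of −0.99 ± 0.31 (SE) did not pass the edgeR quasi-likelihood test (adjusted p = 0.0878). TRAF7, an E3 ubiquitin ligase gene that starts 293 bases away on the other strand, had folds of 0.883 and 0.780.

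DANCR, a non-coding RNA named for keeping progenitor cells from differentiating and the host of SNORA26, had 28.4 and 20.8 CPM in MDA-MB-231 and 55.9 and 39.3 CPM in MDA-MB-435. Each CPYPP library was below its own control, but the treated MDA-MB-435 library stayed above both MDA-MB-231 libraries. The folds were 0.732 (0.640 to 0.836) and 0.702 (0.642 to 0.769), and the common log2 fold change of −0.48 ± 0.14 (SE) had an adjusted p of 0.0681 in the edgeR quasi-likelihood test. SNHG12, chosen here after its values were seen, had folds of 0.549 (0.463 to 0.649) and 0.810 (0.704 to 0.930) and an adjusted p of 0.0995 in the same edgeR test. SNHG4, SNHG26 and SNHG19 were the 3 host genes more than 1.5-fold lower in both lines (5.57% of the 14262 genes compared in both lines were).

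Several of the host genes with the highest levels had folds on opposite sides of 1 in the lines. For 12 of the 27 the fold was below 1 in MDA-MB-231 and above 1 in MDA-MB-435 (14.2% of all genes). For 10 it was below 1 in both (37.4% of all genes). For 4 (SNHG7, SNHG17, SNHG21 and SNHG30) it was above 1 in both, as for 4303 of the 14262 genes compared in both lines. For 1, SNHG11, it was above 1 in MDA-MB-231 and below 1 in MDA-MB-435, as for 2592 of the 14262. With scaling to total counts, 10 of 27 were below 1 in MDA-MB-231 and above 1 in MDA-MB-435 (12.7% of all genes), and 14 were below 1 in both (45.5% of all genes). The fold in MDA-MB-435 divided by the fold in MDA-MB-231 had a median of 1.31 over the host genes and 0.977 over all genes. Its exact counting interval lay wholly above 1 for 13 host genes, wholly below 1 for 2 (SNHG4 and SNHG11) and held 1 for 12, where 19% of all genes compared in both lines had an interval above 1 and 21.8% one below 1. Counting intervals lay below 1 in MDA-MB-231 and above 1 in MDA-MB-435 for 4 host genes (SNHG1, ZFAS1, SNHG29 and SNHG16) and for 2.53% of all genes. With 1 library per condition no test of a difference between the lines in their response was possible.

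SNHG1, the U22 host gene with 7 C/D snoRNA entries in its span, had 145 and 116 CPM in MDA-MB-231 and 105 and 152 CPM in MDA-MB-435. The treated library was the lower of the pair in MDA-MB-231 and the higher in MDA-MB-435. The folds were 0.801 (0.757 to 0.848) and 1.45 (1.37 to 1.53), and the ratio of these folds was 1.81 (1.67 to 1.95). SLC3A2, the heavy chain of several amino acid transporters, starts 51 bases from SNHG1 on the other strand and had 6427 and 6776 counts in MDA-MB-231 and 2767 and 10991 counts in MDA-MB-435, with folds of 1.43 (1.38 to 1.48) and 4.86 (4.66 to 5.07). SLC3A2 was above its control in both lines and SNHG1 in MDA-MB-435 only. No exonic base of SNHG1 is shared with a gene other than small RNA genes.

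ZFAS1, the antisense neighbour of ZNFX1 and host of the 3 SNORD12 snoRNAs, had 61.5 and 54.4 CPM in MDA-MB-231 and 111 and 148 CPM in MDA-MB-435. Its folds were 0.885 (0.813 to 0.963) and 1.33 (1.27 to 1.41). ZNFX1, which encodes a zinc finger helicase and starts 248 bases away on the other strand, lay on the other side of 1 in each line, with folds of 1.20 and 0.840. Other genes share 26.1% of the exonic bases of ZFAS1, and since the strand setting of the counting is not given in the sources used here, reads of such overlapping genes on opposite strands cannot be told apart.

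SNHG29, the host of SNORD49A, SNORD49B and SNORD65, had the most reads of the group, with 230 and 199 CPM in MDA-MB-231 and 200.3 and 210 CPM in MDA-MB-435. The 4 libraries lay close together, and 12.0% of its exonic bases are shared with LRRC75A on the other strand. The folds were 0.868 (0.831 to 0.907) and 1.05 (1.00 to 1.09), and with scaling to total counts the log2 fold change in MDA-MB-435 was −0.0086. SNHG16, host of the SNORD1 snoRNAs and chosen here after its values were seen, had 51.8 and 42.6 CPM in MDA-MB-231 and 70.7 and 85.7 CPM in MDA-MB-435, with folds of 0.822 (0.748 to 0.904) and 1.21 (1.13 to 1.30).

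GAS5, a growth arrest-specific RNA known as a textbook target of nonsense-mediated decay, had a fold below 1 beyond counting error in MDA-MB-231 and a fold near 1 in MDA-MB-435. It had 125 and 81.7 CPM in MDA-MB-231 and 124 and 124 CPM in MDA-MB-435, so that the controls and the treated MDA-MB-435 library were level and the treated MDA-MB-231 library stood apart. The folds were 0.656 (0.614 to 0.701) and 0.996 (0.943 to 1.05), and the ratio of these folds was 1.52 (1.39 to 1.65). The common log2 fold change of −0.30 ± 0.14 (SE) did not pass the edgeR quasi-likelihood test (adjusted p = 0.264). ZBTB37, a zinc finger gene that starts 800 bases away on the other strand, had folds of 1.03 and 0.618, and 1.16% of the exonic bases of GAS5 are shared with genes other than small RNA genes.

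SNHG6, the host of SNORD87, had 29.5 and 21.1 CPM in MDA-MB-231 and 65.0 and 67.4 CPM in MDA-MB-435, with folds of 0.715 (0.626 to 0.815) and 1.04 (0.962 to 1.12). SNHG32, the host of SNORD48 and SNORD52, had 76.1 and 56.1 CPM in MDA-MB-231 and 87.0 and 78.3 CPM in MDA-MB-435, with folds of 0.737 (0.679 to 0.799) and 0.901 (0.842 to 0.963). Both were below control in MDA-MB-231, and neither passed the edgeR test of a common effect (adjusted p = 0.532 and 0.208). SNHG6 shares 29.3% of its exonic bases with MCMDC2 on the other strand, which had at most 13 counts in a library. SNHG32 shares 23.2% of its exonic bases with AL671762.1 on its own strand. EPB41L4A-AS1, the host of SNORA13, had 7.81 and 7.44 CPM in MDA-MB-231 and 13.3 and 16.5 CPM in MDA-MB-435. Its folds were 0.952 (0.75 to 1.21) and 1.24 (1.06 to 1.46), and 49.6% of its exonic bases are shared with EPB41L4A, which itself had at most 12 counts in a library.

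The other 14 compared host genes had folds between 0.549 and 1.11 in MDA-MB-231 and between 0.652 and 1.41 in MDA-MB-435, and none passed the test of a common effect. The ends of these ranges were SNHG12 and SNHG21 in MDA-MB-231 and SNHG11 and SNHG15 in MDA-MB-435. SNHG9, SNHG31 and SNHG21 had at most 54 counts in a library, and their intervals held 1 in both lines.

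Folds below 1 were the more frequent in MDA-MB-231 among hosts of either snoRNA class. Of 11 compared hosts of C/D snoRNAs alone, 10 were below 1 in MDA-MB-231 (52.2% of all genes) while 3 were in MDA-MB-435 (58.1% of all genes). Their medians were −0.28 and 0.06 on the log2 scale. Of 11 compared hosts of H/ACA snoRNAs alone, 8 and 4 had a fold below 1 beside the same shares of all genes, with medians of −0.20 and 0.09. Each class holds few genes, and the classes were not tested against each other. SNHG12 holds both classes. GAS5, SNHG10, SNHG20 and SNHG21 were compared but hold no snoRNA gene among the rows used here. Those rows were the genes with a symbol of SNORD or SNORA followed by a number. SNHG20 shares exonic bases with SCARNA16, whose name falls outside that rule. A host of otherwise named snoRNA genes is thus in neither class count.

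Within the spans of 26 host genes lay annotated snoRNA genes of 133 symbols, 109 of the C/D and 24 of the H/ACA class, of which 84 lie in SNHG14 on chromosome 15. In these poly(A) libraries 12 of them had any count, and all together had 71 and 30 counts in MDA-MB-231 (control, then CPYPP) followed by 89 and 73 counts in MDA-MB-435. SNORA71B in SNHG17 had 27, 16, 29 and 36 counts, SNORA73B in SNHG3 had 17, 6, 22 and 11, and SNORD12B in ZFAS1 had 9, 4, 19 and 14. These were the 3 snoRNA genes with at least 10 counts in a library. Mature snoRNAs have no poly(A) tail, and no change in them can be read from these counts.

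Over both treatments, levels differed between the lines for 14 of the 27 host genes in the line term of the same edgeR quasi-likelihood fit. Of these, 10 were higher in MDA-MB-435 (30.5% of all genes tested were) and 4 were higher in MDA-MB-231 (32.4% of all genes). SNHG18, host of SNORD123, was lower in MDA-MB-435 by the widest margin. It had 214 and 154 counts in MDA-MB-231 and 31 and 33 counts in MDA-MB-435, a log2 ratio of −2.66 ± 0.31 (SE, adjusted p = 3.7e-05, edgeR quasi-likelihood test). SNHG5, host of SNORD50B, had 72.5 and 63.9 CPM in MDA-MB-231 and 11.5 and 13.2 CPM in MDA-MB-435, a log2 ratio of −2.46 ± 0.16 (SE, adjusted p = 4.0e-07). SNHG26 (−1.26) and SNHG4 (−0.85) were also lower in MDA-MB-435.

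Among those higher in MDA-MB-435, SNHG11 (log2 ratio 1.71), SNHG6 (1.40) and SNHG20 (1.38) had the widest differences. SNHG21, ZFAS1, EPB41L4A-AS1 and DANCR had log2 ratios between 0.95 and 1.17, and SNHG16, SNHG7 and SNHG32 between 0.33 and 0.73. SNHG1, GAS5, SNHG29, SNHG3 and SNHG17 did not pass this test, with log2 ratios between −0.06 and 0.36. SNHG5, SNHG7, SNHG11, SNHG18, SNHG20 and SNHG21 are named here after their values were seen. SEMA5A, which starts 95 bases from SNHG18 on the other strand and encodes a semaphorin, had 643 and 527 counts in MDA-MB-231 and 33 and 25 counts in MDA-MB-435.

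**Figure D3:**
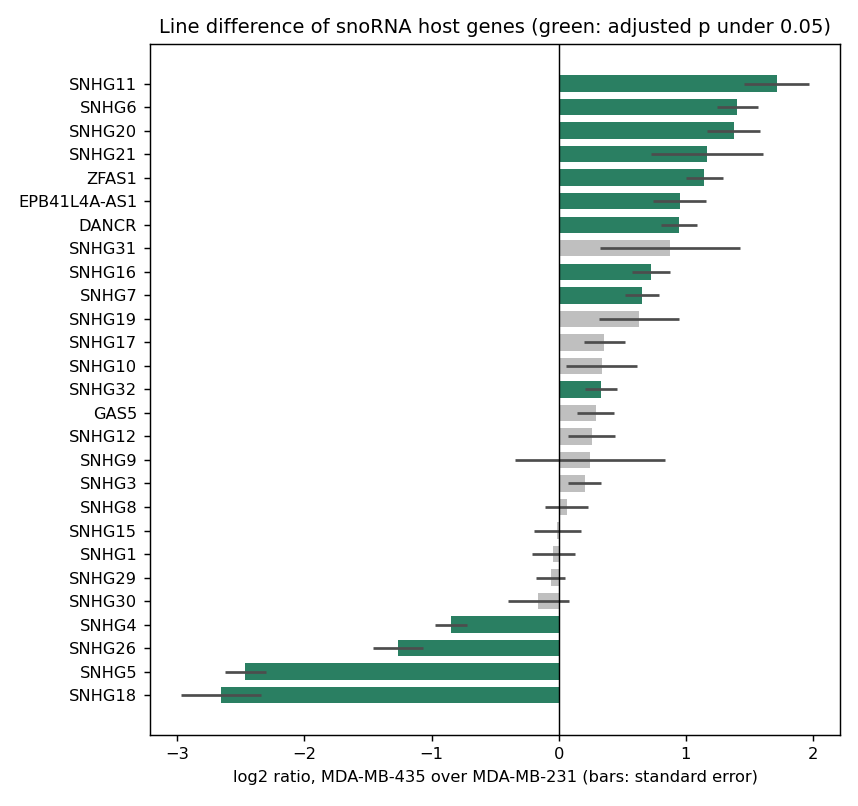
log2 ratio of MDA-MB-435 over MDA-MB-231 for each of the 27 compared snoRNA host genes, over both treatments, with the standard error of the edgeR fit as a line on each bar. Green bars mark the 14 genes with an adjusted p under 0.05, from SNHG18 at −2.66 to SNHG11 at 1.71, and grey bars the others.

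Genes of the machinery around the host RNAs were read from lists of named factors. Of 8 core proteins of snoRNPs (box C/D: FBL, NOP56, NOP58 and SNU13, and box H/ACA: DKC1, NHP2, NOP10 and GAR1), 6 were below 1 in MDA-MB-231 (52.2% of all genes), 0 were below 1 in MDA-MB-435 (58.1% of all genes), 0 were past 2-fold, and none passed the edgeR test of a common effect (0 at an unadjusted p under 0.05). Their median log2 fold changes were −0.08 and 0.12. NOP56, the scaffold of the C/D particle and itself a snoRNA host, had folds of 0.803 and 1.16. It is named here after its values were seen, and its fold in MDA-MB-231 was the lowest of the 8. Of 11 assembly factors, 5 and 2 had a fold below 1 and none passed the test.

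Of 15 factors of nonsense-mediated decay, 2 passed the edgeR test of a common effect, both higher (4.39% of all genes were called higher). SMG1, the kinase that phosphorylates UPF1, had 4778 and 6618 counts in MDA-MB-231 and 5548 and 6901 counts in MDA-MB-435, folds of 1.88 and 1.52 (adjusted p = 0.0041, edgeR quasi-likelihood test). UPF2, the bridge between UPF1 and the exon junction complex, had 1390 and 1635 counts and 1536 and 1628, folds of 1.59 and 1.30 (adjusted p = 0.0317, edgeR quasi-likelihood test). Of 10 genes of the MYC and mTOR pathways, 2 passed the edgeR test of a common effect, both higher (4.39% of all genes were called higher). MXD1, a repressor partner of MAX, had folds of 3.55 and 5.23 (adjusted p = 8.4e-05, edgeR quasi-likelihood test). SESN2, a stress-induced inhibitor of mTORC1, had folds of 5.67 and 20.8 (adjusted p = 0.00035, edgeR quasi-likelihood test). The paper also lists both as upregulated by CPYPP. RPTOR went the other way, with folds of 0.931 and 0.640, and did not pass the test. DDIT4, another inhibitor of mTORC1, had folds of 1.15 and 27.5, and MYC had folds of 1.11 and 2.14, and neither passed the test (adjusted p = 0.138 and 0.0733, edgeR quasi-likelihood test).

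Protein-coding genes whose span holds a snoRNA gene on the same strand gave a comparison outside the group. Whether the snoRNA gene lies in an intron was not checked. Of 142 compared in both lines, 55 had a fold below 1 in MDA-MB-231 and above 1 in MDA-MB-435 (14.2% of all genes). Without ribosomal protein genes 29 of 113 did, beside 12 of the 27 host genes chosen by name. Folds on these sides of 1 were thus not particular to the host genes chosen by name. In the edgeR test of a common effect 6 of 148 protein-coding hosts were higher and 0 were lower (4.39% and 2.85% of all genes), where the 27 host genes had 1 higher and 3 lower. HSPA8, the constitutive HSP70 chaperone, had folds of 2.09 and 2.39, DCP1A, a subunit of the mRNA decapping complex, 2.01 and 1.81, and the translation initiation factor gene EIF5 1.6 and 2.15. TMEM107 had folds of 0.484 and 0.557 and CSKMT of 0.404 and 0.653, and these 2 did not pass the test. The difference between the protein-coding hosts and the host genes chosen by name was not tested.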

How the data were processed

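Total RNA was poly(A)-selected and sequenced, and the authors deposited raw counts of reads per gene with no normalization, beside gene positions and exon lengths. The submitters' processing notes name cutadapt 1.9.1, HISAT2 2.2.1, HTSeq 0.6.1 and DESeq2 with no role or order, and the build GRCh37.p13. Of 58254 gene identifiers shared with GENCODE v29, 58196 have a position that overlaps it, so that the positions in the table are those of GRCh38. The annotation version and the strand setting are not given in the sources used here. The culture and treatment notes mention MDA-MB-435 alone, also for MDA-MB-231 samples, so that the line was taken from each sample's title. Value columns that match no sample numbered 0.

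Models were fitted in R 4.3.3 (limma 3.58.1, edgeR 4.0.16, DESeq2 1.42.0). Python 3.11.15 was used for all else (scipy 1.17.1, pandas 2.3.3, matplotlib 3.10.9, numpy 2.4.6). TMM factors over the 4 libraries were 1.00 and 0.961 for MDA-MB-231 control and CPYPP and 1.05 and 0.993 for MDA-MB-435. Folds within a line were computed for genes with at least 10 counts in 1 of its libraries, with no test. Intervals and shares cover counting error only, and reads without molecular identifiers are not independent molecules. The common effect and the line difference were tested with edgeR's quasi-likelihood test with Benjamini-Hochberg adjustment over the 16801 genes that pass filterByExpr, with line and treatment as terms. FPKM used the deposited exonic lengths. Alternatives were total counts, DESeq2 size factors, upper quartile scaling, no count filter, a limit of 1.5-fold, no line term and the DESeq2 Wald test. TMM within each line, members without shared exons, and the summed level and the count of folds below 1 were added after seeing the data.

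Host genes given with all 4 values were those past 2-fold in either line, those with a common effect, the 5 with the highest mean FPKM, and GAS5, ZFAS1, EPB41L4A-AS1 and DANCR. Neighbours were protein-coding genes that overlap a host gene or start within 2000 bases on the other strand. The members, lists and tests were chosen with earlier results of these data known. Promoters came from RefSeq (GRCh38.p14), with 28 of 32 host genes matched. The study's protein, imaging and mouse data were not analysed here.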

Additional observations from a re-analysis of the deposited data

Results flagged for a closer look

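For 4 snoRNA host genes the counting intervals of the 2 lines lay on opposite sides of 1, lower after CPYPP in MDA-MB-231 and higher in MDA-MB-435, as for 2.53% of all genes compared in both lines, and the difference between the lines was not tested because each condition had 1 library. The fold in MDA-MB-435 divided by that in MDA-MB-231 was 1.81 (1.67 to 1.95) for SNHG1, 1.51 (1.36 to 1.67) for ZFAS1, 1.47 (1.31 to 1.66) for SNHG16 and 1.21 (1.13 to 1.28) for SNHG29. SNHG29 lost its place above 1 in MDA-MB-435 with scaling to total counts (log2 fold change −0.0086). SNHG16, ZFAS1 and SNHG29 share 30.6%, 26.1% and 12.0% of their exonic bases with other genes, and the part of those reads in the values was not tested. SNHG1 shares none apart from small RNA genes.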

How the results depend on the processing

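The cell line served as the block in the test of the common effect, no further block could be added because the labels give no replicate numbers, and no library could be left out because each condition had 1. In MDA-MB-231, 1 host gene passed 2-fold with total counts, upper quartile scaling or no filter in place of 0, and 7 passed 1.5-fold. The median there was −0.34 with total counts, −0.33 with upper quartile, −0.20 with no filter and −0.20 over the 11 members without shared exons, of which 9 had a fold below 1. The summed fold was 0.763 with total counts and 0.771 with upper quartile. In MDA-MB-435, 0 passed 2-fold with DESeq2 size factors or TMM within the line, 2 with no filter, and 5 passed 1.5-fold. The median there was −0.022 with total counts, 0.077 with DESeq2 size factors, 0.024 with upper quartile, 0.11 with TMM within the line and 0.20 over members without shared exons, of which 3 of 11 had a fold below 1. The summed fold was 1.02, 1.09, 1.05 and 1.11 with total counts, DESeq2 size factors, upper quartile and TMM within the line. SNHG29 turned to −0.0086 in MDA-MB-435 with total counts. Members with a common effect numbered 7 with total counts or no filter (DANCR, SNHG12 and SNHG19 beside the 4). With upper quartile scaling they numbered 6 (DANCR and SNHG12 beside the 4), and with the DESeq2 Wald test 2 (SNHG3 and SNHG4). Without the line term, where the difference between the lines enters the residual, they numbered 0 (0 at an unadjusted p under 0.05). Line differences numbered 12 to 16. A count of members was taken as unchanged within a factor of 1.5 of the main count. Examples are 16 in place of 11 members below 1 in MDA-MB-435 with total counts, and 6 in place of 4 with a common effect. On these rules, 219 of 260 alternative values kept their direction and side of the threshold or moved within their limits. Most were values of single host genes, of which 182 of 194 did so. Of the values for the group, 37 did so, 28 moved and 1 reversed. TMM within each line left the folds in MDA-MB-231 as they were, so those values could not change. The cause of the other changes was not tested. Host genes under 10 counts could not be compared at this depth.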
